A study of Mus musculus with 6 samples.

Results

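NRF2, the product of Nfe2l2, and the enzymes that make and recycle glutathione were followed in BV2 cells, an immortalised mouse microglial cell line, with and without knockdown of SMEK1. The 10 genes were given by name and matched on the gene symbol of the deposited count table: the regulators Nfe2l2, Keap1 and Bach1, the NRF2 targets Nqo1 and Osgin1, and the glutathione genes Gclc, Gclm, Gsr, Gpx1 and Gpx4. All 10 were found among the 54532 genes of the table, all 10 had a count in every library, and 9 passed the filter on low counts that left 12269 genes for testing. RNA was sequenced from 3 libraries labelled SMEK1 knockdown and 3 labelled WT, each named A, B and C after the letter in its title; values of a group are always given in that order. All 6 come from the same cell line grown in the same serum-containing medium with no labelled stimulus, and the sources used here do not say if a control construct was present in the WT cells. The design text of the series counts the LV1 and NL lines alike as knockdown derivatives, so WT is used here only as the name of the label. Separate cultures within a group are not described, so the p-values reflect the spread between libraries only, which may be technical, and other differences between the knockdown and WT cultures cannot be told apart from the knockdown.

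NRF2 is a transcription factor that cells keep low by destruction: KEAP1 holds it and hands it to a CUL3 ubiquitin ligase, which marks it for the proteasome. When electrophiles or oxidants modify KEAP1, NRF2 builds up, pairs with small MAF proteins and binds antioxidant response elements, where BACH1 competes with it as a repressor. Its targets include NQO1, OSGIN1 and the enzymes of glutathione, the thiol that peroxidases such as GPX1 and GPX4 spend on hydrogen peroxide and lipid peroxides. Because NRF2 is controlled mainly at the protein level, the transcript levels below say nothing direct about its amount or activity.

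Library totals were 18036591 to 21131557 counts, and after scaling by trimmed mean of M-values (TMM) a single count was worth 0.0444 to 0.0597 CPM, counts scaled to a common library size. The targeted gene Ppp4r3a, which encodes SMEK1, had 48, 122 and 94 counts in the 3 knockdown libraries and 335, 227 and 260 counts in the 3 WT libraries. It fell by 1.94 on the log2 scale (SE 0.24, edgeR quasi-likelihood test with Benjamini-Hochberg adjusted p = 8.22e-05). Markers of microglia were present but not unchanged: of 9 tested, 5 were called lower and 1 higher in the knockdown, with a summed level of 2869 to 3235 CPM against 3544 to 3980 CPM in WT, and P2ry12 had at most 0.108 CPM in any library. Fibroblast and astrocyte markers summed to at most 0.177 CPM in any library. Neuronal markers summed to 0.800 to 1.81 CPM after knockdown and 0.418 to 0.706 CPM in WT, with Snap25, Map2 and Syt1 at 0 counts. Oligodendrocyte markers summed to 7.15 to 7.26 CPM against 2.53 to 2.81 CPM, mostly from Mbp with Mog at 0. Endothelial markers summed to 38.5 to 54.6 CPM against 19.8 to 28.0 CPM, mostly from Flt1 with Cldn5 and Cdh5 at 0. These marker levels move with the groups, and their part in the results below was not tested.

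Gclc and Gsr, an enzyme that makes glutathione and one that recycles it, were lower in the knockdown, and the transcripts of the regulators Nfe2l2, Keap1 and Bach1 were not called. In bulk RNA, fewer cells expressing a gene and less of its RNA per cell cannot be told apart. Of the 9 tested genes 0 were called higher and 2 lower at an adjusted p under 0.05. Over all 12269 genes 40.1% were called, 20.5% higher and 19.6% lower, and 22.2% of the 9 were called, all lower. The median log2 fold change of the 9 was -0.11, against 0.01 over all genes tested. The ranges of the groups did not overlap for Gclc, Gsr, Osgin1 and Gpx1, where 50.9% of all tested genes showed no overlap. The gap was very small for Osgin1 (22.97 CPM in knockdown B, 23.04 CPM in WT B). It was also very small for Gpx1 (1046.12 CPM in knockdown C, 1046.38 CPM in WT C).

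**Figure D1:**
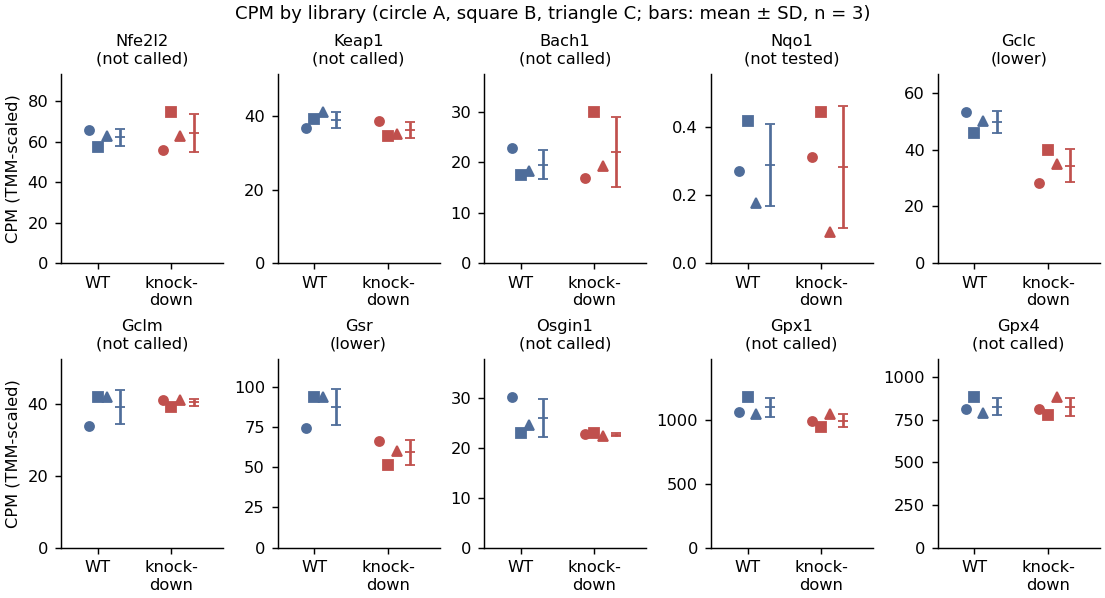
TMM-scaled CPM (y axis, starting at 0) of each of the 10 genes in the WT (blue) and knockdown (red) libraries, with the mean ± SD of 3 libraries beside the points. Gclc and Gsr lie lower in all 3 knockdown libraries than in any WT library, while the points of Nfe2l2, Keap1, Bach1, Gclm and Gpx4 overlap.

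Nfe2l2 itself stood at 55.9, 74.6 and 63.0 CPM in the 3 knockdown libraries and at 66.0, 57.4 and 63.0 CPM in the 3 WT libraries. The groups overlapped throughout, with knockdown B highest and knockdown A lowest of the 6. Its log2 fold change was 0.05 (SE 0.11, approximate 95% interval -0.18 to 0.29, edgeR adjusted p = 0.718). Nfe2l2 (ENSMUSG00000015839) is at 75675513 to 75704641 of chromosome 2, minus strand, in GRCm38, and the snRNA gene Gm24996 inside it had 1 count in all.

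Keap1, the adaptor that targets NRF2 for destruction, had 38.7, 34.7 and 35.3 CPM in the 3 knockdown libraries and 36.7, 39.2 and 41.1 CPM in the 3 WT libraries. Knockdown A fell among the WT libraries and the other knockdown libraries just under them. The log2 fold change of Keap1 was -0.11 (SE 0.10, approximate 95% interval -0.32 to 0.10, edgeR adjusted p = 0.395). The gene (ENSMUSG00000003308, chromosome 9, 21229730 to 21239361, minus strand) overlaps the antisense gene Gm16754 over 3317 bases. Gm16754 had 34 counts over the knockdown libraries and 16 over the WT libraries, too few to be tested, and the strand setting of the counting is not stated.

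Bach1, the repressor that competes with NRF2, had 16.9, 29.9 and 19.2 CPM in the 3 knockdown libraries and 22.9, 17.4 and 18.3 CPM in the 3 WT libraries. Knockdown B stood above all other libraries, and the other values of the groups were interleaved. The log2 fold change was 0.18 (SE 0.20, approximate 95% interval -0.25 to 0.61, edgeR adjusted p = 0.507), and it was -0.09 without knockdown B. Bach1 (ENSMUSG00000025612, plus strand, 87698945 to 87733346) lies on chromosome 16, where the median of the other 376 tested genes was 0.40 and 49.5% of them were called higher. Of the 7 tested genes within 2 Mb of Bach1, 2 were called higher and 0 lower, with a median of 0.14.

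Set against Nfe2l2 within each library, Keap1 and Bach1 showed ranges that overlapped between the groups. Ratios were taken in the authors' FPKM (fragments scaled by gene length and a library size). That library size was 1.02, 1.12 and 1.06 times the count total in the 3 knockdown libraries. In WT it was 0.99, 0.91 and 0.95 times the total. The ratio of Keap1 to Nfe2l2 was 0.559, 0.376 and 0.453 in the 3 knockdown libraries and 0.450, 0.552 and 0.528 in the 3 WT libraries. Its log2 difference of knockdown minus WT was -0.15 (two-sided exact permutation p = 0.7). The ratio of Bach1 to Nfe2l2 was 0.186, 0.246 and 0.188 in the knockdown and 0.213, 0.186 and 0.178 in WT, a log2 difference of 0.09 (two-sided exact permutation p = 0.5) that became -0.04 without knockdown B. Adjusted over the 3 ratios tested, each of these p-values was 0.7, and with 3 libraries against 3 the smallest possible p is 0.1.

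Glutathione is made in 2 steps, and the first and rate-limiting one is run by glutamate-cysteine ligase, a pair of a catalytic subunit, Gclc, and a modifier subunit, Gclm, that raises its efficiency. Gclc had 28.4, 39.9 and 34.8 CPM in the 3 knockdown libraries and 53.2, 45.7 and 50.1 CPM in the 3 WT libraries. Every knockdown library lay under every WT library. Gclc fell by 0.53 on the log2 scale (SE 0.12, edgeR adjusted p = 0.00505), a change of -30.8%. With library totals in place of TMM the log2 fold change of Gclc was -0.37 and the call was lost (adjusted p = 0.0642). The gene (ENSMUSG00000032350) lies on the plus strand of chromosome 9 from 77754535 to 77794485, and the median of the other tested genes of that chromosome was 0.02.

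Gclm, the modifier subunit, was not called. It had 41.1, 39.3 and 41.2 CPM in the 3 knockdown libraries, all inside the WT range of 33.8, 42.1 and 42.1 CPM in the 3 WT libraries. Its log2 fold change was 0.04 (SE 0.11, approximate 95% interval -0.19 to 0.27, edgeR adjusted p = 0.765). Gclm (ENSMUSG00000028124) lies on the plus strand of chromosome 3 from 122245557 to 122270732 and overlaps the opposite-strand gene Gm17494, which had 16 and 15 counts over the knockdown and WT libraries.

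The difference between the subunits was taken from their ratio, which does not depend on the scaling between libraries. The FPKM ratio of Gclm to Gclc was 0.867, 0.590 and 0.708 in the 3 knockdown libraries against 0.380, 0.551 and 0.502 in the 3 WT libraries. All knockdown values lay above all WT values, by a narrow margin between knockdown B and WT B. The means were 0.722 ± 0.139 and 0.478 ± 0.0881 (SD, n = 3), 1.51-fold apart, with the smallest two-sided exact permutation p the design allows, 0.1, or 0.3 adjusted over the 3 ratios.

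**Figure D2:**
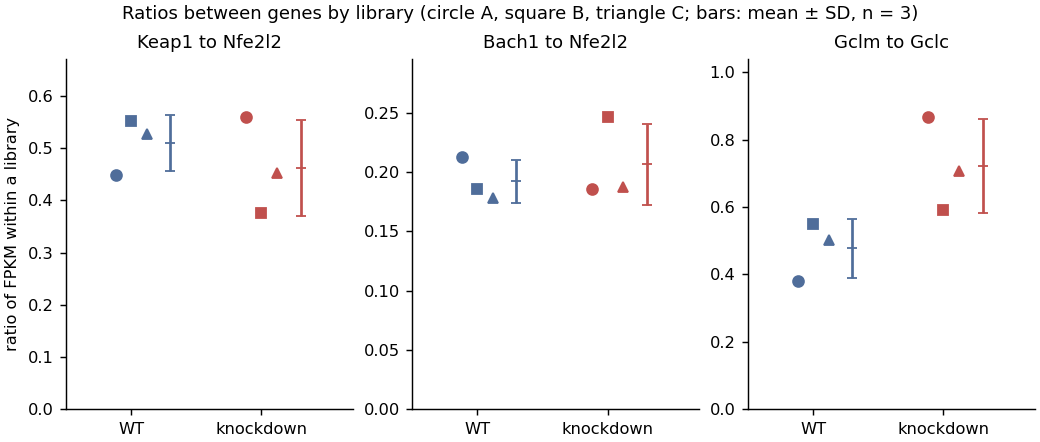
FPKM ratios within each library (y axes, starting at 0) of Keap1 to Nfe2l2, Bach1 to Nfe2l2 and Gclm to Gclc in WT (blue) and knockdown (red), with mean ± SD of 3 libraries. The ratios over Nfe2l2 overlap between groups, while the Gclm to Gclc ratio lies at 0.590 or above in the knockdown and at 0.551 or under in WT.

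Gsr encodes glutathione reductase, which returns oxidised glutathione to its reduced form at the cost of NADPH. Its values were 66.4, 51.1 and 60.0 CPM in the 3 knockdown libraries and 74.3, 93.8 and 93.5 CPM in the 3 WT libraries. No knockdown library reached the lowest WT library, and WT A lay nearest to the knockdown. Gsr fell by 0.56 on the log2 scale (SE 0.12, edgeR adjusted p = 0.00249), a change of -32.1%. It was called under all 18 alternatives, with adjusted p from 1.94e-07 to 0.0186. Its log2 fold change ran from -0.67 to -0.40 over them, and was -0.40 with library totals. The gene (ENSMUSG00000031584, chromosome 8, 33652523 to 33698163, plus strand) had 16 tested genes within 2 Mb, 1 called higher and 2 lower, with a median of -0.01. The snoRNA gene Gm24727 inside Gsr had 20 counts over the knockdown libraries and 21 over WT.

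The peroxidases that use glutathione were by far the most abundant of the 10 transcripts. Gpx1, the cytosolic and mitochondrial enzyme for hydrogen peroxide, had 992, 941 and 1046 CPM in the 3 knockdown libraries and 1063, 1180 and 1046 CPM in the 3 WT libraries. Gpx1 (ENSMUSG00000063856) is at 108338903 to 108340343 of chromosome 9, plus strand. Its groups lay next to each other, since knockdown C and WT C differed by less than 1 CPM. The log2 fold change of Gpx1 was -0.14 (SE 0.09, approximate 95% interval -0.33 to 0.04, edgeR adjusted p = 0.208), and with library totals it was 0.02.

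Gpx4, which reduces lipid peroxides in membranes and so holds back ferroptosis, had 813, 776 and 885 CPM in the 3 knockdown libraries and 811, 882 and 788 CPM in the 3 WT libraries. The groups overlapped. Gpx4 (ENSMUSG00000075706) is at 80047166 to 80056439 of chromosome 10, plus strand. Its log2 fold change was -0.00364 (SE 0.09, approximate 95% interval -0.19 to 0.18, edgeR adjusted p = 0.977). A processed copy, Gpx4-ps2, carried 16.7% to 18.2% as many counts as Gpx4 in each library, so reads of the copy and of Gpx4 may have been split between them. With the counts of Gpx4-ps2 added, an alternative chosen after seeing the data, the log2 fold change was 0.01 (adjusted p = 0.963).

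Nqo1, a quinone reductase often used as a readout of NRF2, was nearly absent from these cells. It had 6, 10 and 2 counts in the 3 knockdown libraries and 5, 7 and 3 counts in the 3 WT libraries, or 18 against 15 over the groups. Nqo1 (ENSMUSG00000003849, chromosome 8, 107388225 to 107403206, minus strand) was too low to be tested under the filter. After scaling, its ratio of knockdown to WT was 0.983, with an exact 95% counting interval of 0.468 to 2.10 that covers counting error only. With a filter of 1 count in any library the log2 fold change of Nqo1 was 0.01 (SE 0.78, edgeR adjusted p = 0.994). Differences of Nqo1 inside that counting interval, or somewhat beyond it, may have been missed at this depth.

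Osgin1, a stress-induced growth inhibitor, was expressed at 22.7, 23.0 and 22.3 CPM in the 3 knockdown libraries and at 30.2, 23.0 and 24.5 CPM in the 3 WT libraries. The knockdown libraries were close together at the lower end, and WT A alone stood well above the rest. Osgin1 (ENSMUSG00000074063) is at 119434124 to 119446256 of chromosome 8, plus strand. Its log2 fold change was -0.20 (SE 0.12, approximate 95% interval -0.46 to 0.07, edgeR adjusted p = 0.225), and it was -0.07 without WT A.

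**Figure D3:**
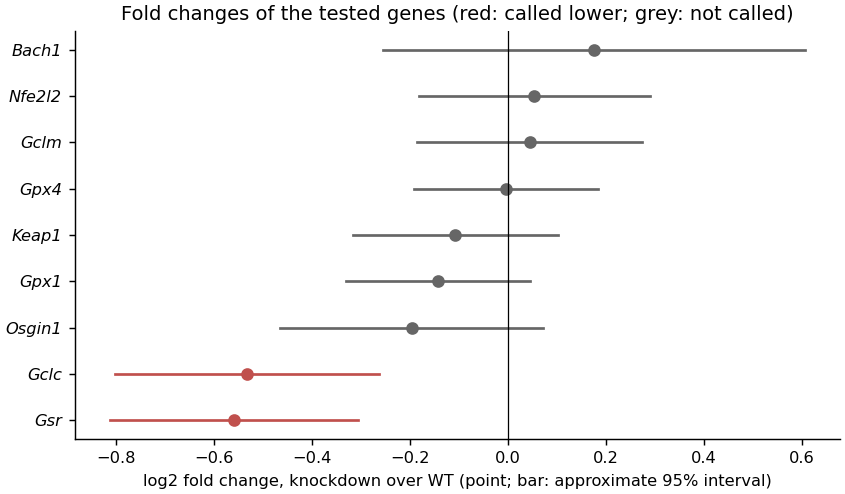
Log2 fold changes of knockdown over WT (x axis) of the 9 tested genes, with approximate 95% intervals as bars. The intervals of Gclc and Gsr lie below 0, and those of the other 7 genes include it.

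Some of the scatter within groups went together across genes. Nfe2l2, Bach1 and Gclc were each highest in knockdown B among the knockdown libraries and in WT A among the WT libraries, and each lowest in knockdown A and WT B. This order was not particular to the pathway, since the targeted gene Ppp4r3a and the microglia marker Ptprc had it too. Ppp4r3a stood at 2.51, 5.42 and 4.25 CPM in the knockdown and at 18.1, 13.5 and 15.3 CPM in WT. Gsr and Gpx1 were lowest in knockdown B, and Gsr was also lowest in WT A. Over all tested genes the deviations of knockdown B and WT A from their group means correlated at 0.49. That was the highest value between any knockdown and any WT library, picked after all were seen. Genes are not independent replicates, and deviations from a mean of 3 libraries depend on one another. The value therefore cannot show that knockdown B and WT A share a source of scatter. What sets these libraries apart is not given by the labels and was not tested.

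Per length, in the authors' FPKM, the levels in WT spanned more than 3 orders of magnitude. Gpx1 stood at 759 ± 49.9 and Gpx4 at 478 ± 28.0 FPKM (SD, n = 3), above 98% of the tested genes. Gsr followed at 31.6 ± 3.98, Nfe2l2 at 16.3 ± 1.17, Gclc at 13.2 ± 1.02, Osgin1 at 9.67 ± 1.44 and Keap1 at 8.28 ± 0.457 FPKM (SD, n = 3). Gclm stood at 6.23 ± 0.746, Bach1 at 3.15 ± 0.484 and Nqo1 at 0.185 ± 0.0779 FPKM (SD, n = 3). Osgin1 and Keap1 were the only neighbours in this order whose WT ranges overlapped. In the knockdown libraries Gclc stood at 9.02 ± 1.38 FPKM (SD, n = 3), where its range also took in the values of Osgin1 and overlapped those of Keap1.

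**Figure D4:**
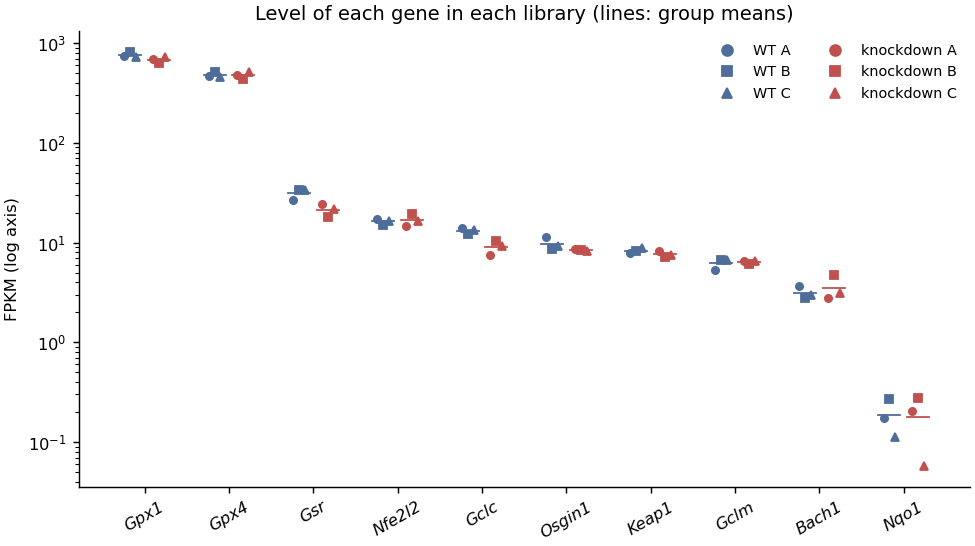
FPKM of the 10 genes (log y axis), ordered by their mean in WT, in each WT (blue) and knockdown (red) library, with lines at the group means. The glutathione peroxidases Gpx1 and Gpx4 stand above every other gene, and Nqo1 below every other gene, in all 6 libraries.

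The genes around the 10 were read from lists of known roles. Of 15 tested genes that also govern NRF2 (of 18 listed), 3 were called higher and 1 lower, 26.7% in all against 40.1% of all tested genes, with a median log2 fold change of -0.04 against 0.01. Nfe2l1, a factor related to NRF2 that drives proteasome genes, rose by 0.35 on the log2 scale (SE 0.08, edgeR adjusted p = 0.00329). Its levels were 250, 228 and 229 CPM in the 3 knockdown libraries against 178, 192 and 184 CPM in the 3 WT libraries, with no overlap.

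The called components of NRF2 destruction, Cul3, Btrc and Gsk3b, did not share a direction, and their calls were fragile. Rbx1, Skp1a, Cul1, Cand1 and Syvn1, also listed, were not called. Their log2 fold changes were -0.04, -0.09, 0.32, -0.26 and -0.19. Cul3, the ligase scaffold that KEAP1 works with, fell by 0.70 on the log2 scale (edgeR adjusted p = 0.0301). Its levels were 7.32, 12.4 and 10.9 CPM in the 3 knockdown libraries and 22.1, 13.2 and 14.3 CPM in the 3 WT libraries. Cul3 no longer passed with WT A left out (adjusted p = 0.131), nor with knockdown A (0.109) or knockdown C (0.0629) left out. It also failed with upper quartile scaling (0.0601) and library totals (0.131), and was called under 9 of the 18 alternatives. Btrc and Gsk3b, which act in a KEAP1-independent route of NRF2 destruction, rose by 0.46 each on the log2 scale. The call for Btrc was lost without WT A (adjusted p = 0.0594) or WT B (0.0788), and it held under 12 of the 18 alternatives. That for Gsk3b, which lies on chromosome 16, was lost without knockdown B (0.0822), WT B (0.0772) or WT C (0.0958), and held under 11. Limma on either FPKM scale, a replicate block and a threshold of 0.01 each lost the calls for Cul3, Btrc and Gsk3b. The small MAF partners Mafg, Maff and Mafk were not called, with log2 fold changes of -0.10, -0.13 and 0.15. The count of higher regulators was 1 without WT B, and that of lower ones was 2 without knockdown B and 0 without knockdown C or WT A.

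Other genes known as NRF2 targets split. Of 28 tested (of 32 listed) 6 were called higher and 10 lower, 57.1% in all against 40.1% of all tested genes, with a median of 0.02. Only 6 were lower without knockdown C or without WT C, and with library totals 12 were higher and 5 lower. Srxn1, which repairs oxidised peroxiredoxins, had 159, 132 and 134 CPM in the 3 knockdown libraries and 61.0, 76.4 and 70.3 CPM in the 3 WT libraries. Srxn1 rose by 1.04 on the log2 scale (SE 0.10, edgeR adjusted p = 1.55e-05), the knockdown libraries standing well clear of WT. Blvrb, a biliverdin reductase, rose by 0.74 (SE 0.08) and Gstm5, a glutathione transferase, rose by 2.02 (SE 0.20) on the log2 scale. Gstm5 belongs to a family of similar genes, so its counts are uncertain. Abcc4, an exporter, fell by 1.12 on the log2 scale (SE 0.14). Its locus is in the part of chromosome 14 past 40 Mb, whose 288 tested genes had a median of -0.39.

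Among widely used marker genes of the pathway, Srxn1 was called higher (above), Txnrd1 was called lower, and Hmox1 and Slc7a11 were not called. Hmox1, haem oxygenase and a main BACH1 target, had 267, 211 and 232 CPM in the 3 knockdown libraries and 228, 274 and 258 CPM in the 3 WT libraries. The groups of Hmox1 overlapped, and its log2 fold change was -0.10 (approximate 95% interval -0.32 to 0.12, edgeR adjusted p = 0.472). Txnrd1, thioredoxin reductase, fell by 0.31 on the log2 scale (SE 0.09, edgeR adjusted p = 0.015), and it was called under 13 of the 18 alternatives. It did not pass with WT C (adjusted p = 0.0840) or knockdown C (0.0837) left out, with a replicate block (0.0658) or at a threshold of 0.01. With library totals the log2 fold change of Txnrd1 was -0.15 and it did not pass either (adjusted p = 0.225). Slc7a11, the cystine importer that feeds glutathione synthesis, had -0.30 (adjusted p = 0.259; 0.0287 without WT B).

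The promoter tables of RefSeq (GRCm38.p6, 250 bases before to 50 after each start) held 8 of the 10 genes in 11 windows; Gclc and Gsr were not among them. The antioxidant response element was searched as TGACNNNGC on either strand, letters whose start can overlap the TGACTCA element of AP-1 factors. It was found in 2 of the 8 genes, Nfe2l2 and Gclm, against 3781 of all 27025 genes with a window. By window it was found in 2 of 11, or 18.2%, against 12.4% of all 32851 windows. Among other NRF2 targets with a window it was found in 2 of 6 called higher, 4 of 9 called lower and 3 of 11 not called. The stretches below show the match in both members and in 1 target of each direction, with the matching letters in capitals, written as TGACNNNGC on the strand of the gene or as its reverse complement. They read 5′ to 3′ on the strand of the gene, which is minus for Nfe2l2 and plus for the other 3, at chr2:75704875-75704913 for Nfe2l2, chr3:122245403-122245451 for Gclm, chr2:152105532-152105573 for Srxn1 and chr10:82859094-82859142 for Txnrd1.
Nfe2l2: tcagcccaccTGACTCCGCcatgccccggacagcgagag
Gclm: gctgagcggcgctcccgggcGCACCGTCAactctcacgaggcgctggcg
Srxn1: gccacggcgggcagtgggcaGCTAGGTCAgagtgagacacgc
Txnrd1: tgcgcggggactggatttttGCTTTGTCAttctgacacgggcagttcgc

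A match is a description of the letters and not a bound site. Srxn1, which rose, Txnrd1, which fell, and Nfe2l2 and Gclm, which were not called, were shown because they carry one. Their calls therefore cannot tell whether a match goes with a direction, which was not tested.

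Other glutathione genes were called in both directions. Of 16 tested (of 26 listed) 7 were lower and 3 higher, 62.5% in all against 40.1% of all tested genes, with a median of -0.12 against 0.01. With library totals 5 were higher and 5 lower, and the difference between the directions was not tested. Gss, glutathione synthetase and the enzyme of the step after Gclc, had 43.2, 37.1 and 41.3 CPM in the 3 knockdown libraries and 23.0, 26.1 and 27.4 CPM in the 3 WT libraries. Gss rose by 0.67 on the log2 scale (SE 0.11, edgeR adjusted p = 0.000475), the opposite sign to Gclc. Chac1, which degrades glutathione inside cells, had 8.96 ± 0.866 CPM after knockdown and 17.9 ± 0.677 CPM in WT (SD, n = 3), and it fell by 1.00 on the log2 scale (SE 0.14). Anpep, an aminopeptidase that takes part in the breakdown of its peptides outside cells, fell by 0.57 (SE 0.08) and the glutaredoxin gene Glrx fell by 0.71 (SE 0.15) on the log2 scale. Without knockdown C, 1 gene of the list was called higher. Of the other glutathione peroxidase genes, Gpx2, Gpx7 and Gpx8 had 0 counts in every library, and Gpx3 was close to absent, at 0.346 ± 0.0720 CPM after knockdown and 0.348 ± 0.128 CPM in WT (SD, n = 3).

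GPX1 and GPX4 carry selenocysteine, an amino acid inserted by dedicated machinery. Of 9 genes of selenium supply and selenocysteine insertion, all tested, 3 were called higher and 0 lower, with a median of 0.06. That is 33.3% called, against 40.1% of all tested genes in either direction and 20.5% higher. Scly, which frees selenium from selenocysteine, rose by 0.40 on the log2 scale (SE 0.09, edgeR adjusted p = 0.0058), at 215, 173 and 170 CPM in the 3 knockdown libraries and 138, 144 and 141 CPM in the 3 WT libraries. Sephs2, which makes selenophosphate, rose by 0.27 and Pstk, a kinase of the selenocysteine tRNA, rose by 0.44 on the log2 scale, calls with adjusted p of 0.0331 and 0.0385. Leaving out any 1 of the 6 libraries ended the call for Pstk (adjusted p 0.0534 to 0.131). Sephs2 did not pass with WT A (adjusted p = 0.109), WT C (0.0668), knockdown A (0.0635) or knockdown C (0.129) left out. That left 1 higher gene in each case, and without knockdown A 1 gene was lower. Limma on either FPKM scale, a replicate block and a threshold of 0.01 each lost the calls for Sephs2 and Pstk. Of the 18 alternatives, 10 called Sephs2 and 8 called Pstk.

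Among 12 tested genes of ferroptosis, the death by lipid peroxidation that GPX4 opposes, 1 was called higher and 4 lower, 41.7% in all against 40.1% of all tested genes, with a median of -0.18. Gch1, which makes the antioxidant tetrahydrobiopterin, had 10.9, 9.11 and 8.85 CPM in the 3 knockdown libraries and 33.9, 44.9 and 36.5 CPM in the 3 WT libraries. Gch1 fell by 2.00 on the log2 scale (SE 0.14, edgeR adjusted p = 1.09e-06), with every knockdown library under every WT library, and it lies on chromosome 14 past 40 Mb. Alox15, a lipoxygenase, fell by 0.94 (SE 0.23) and Slc3a2, the partner chain of the cystine importer, fell by 0.33 (SE 0.07) on that scale, with -0.17 for Slc3a2 when library totals were used. Ncoa4, the receptor that delivers ferritin to lysosomes, rose by 0.53 (SE 0.12). Without knockdown B, 2 genes of this list were higher, and with library totals 4 were higher and 3 lower.

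**Figure D5:**
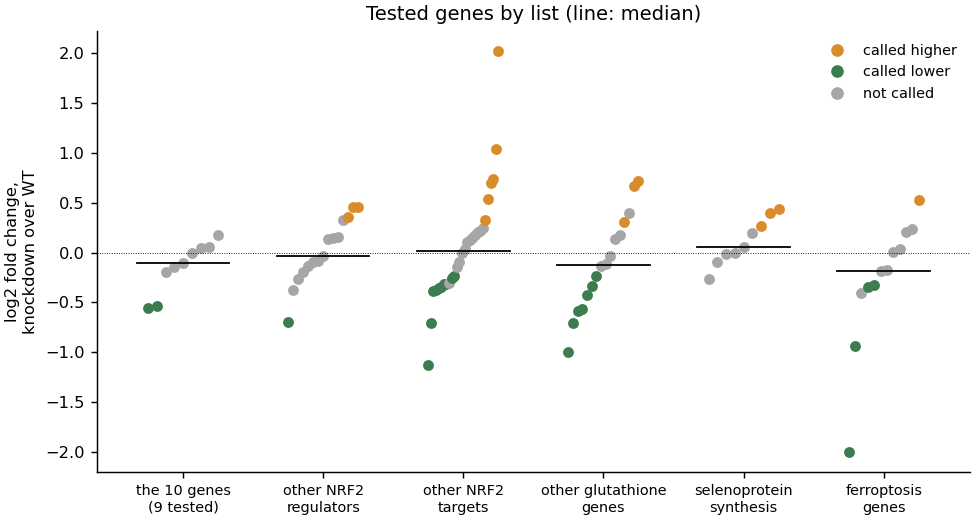
Log2 fold changes of knockdown over WT (y axis) of the tested genes of each list, ordered by value within a list, with genes called higher in orange, called lower in green, not called in grey, and a line at the median. The 9 tested members and the other regulators lie within 0.7 of 0, while the targets reach 2.02 at the top (Gstm5) and -1.12 at the bottom (Abcc4) and the ferroptosis genes reach -2.00 (Gch1).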

How the data were processed

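The members, lists and alternatives were chosen with earlier results of these data known. The authors deposited whole-number counts per gene and FPKM values. The genome was GRCm38 (mm10), per the submitters' processing notes. The aligner, counter, strand setting and annotation were not given in the sources used here. Library totals were 18036591 to 21131557 counts. In R 4.3.3, genes kept by filterByExpr were scaled by TMM and compared with edgeR 4.0.16 (glmQLFit and glmQLFTest, no covariates), adjusting by Benjamini-Hochberg across 12269 genes, with calls at an adjusted p under 0.05. SEs were derived from the log2 fold change and its F statistic, so SEs and intervals are approximate. Ratios of the authors' FPKM were compared with exact permutation tests of the library labels. The steps were tested on simulated data. Named genes were the 10 members, Ppp4r3a, up to 4 called genes of each pathway list with the smallest adjusted p, Hmox1, Txnrd1, Srxn1, Slc7a11 and genes overlapping a member; Gpx4-ps2, the small MAF genes and Gpx2, Gpx3, Gpx7 and Gpx8 were added after their values were seen. Alternatives used DESeq2 1.42.0 and limma 3.58.1, limma on log2(FPKM + 1) and log2(FPKM + 0.1), other scalings, filters and thresholds, a replicate block, protein-coding genes alone and each library left out in turn.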

Additional observations from a re-analysis of the deposited data

How the results depend on the processing

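Of the 10 genes, Gsr was called under all 18 alternatives and Gclc under 17, and the 7 other tested genes were called under none. With library totals, which raised the median over all genes from 0.01 to 0.17, 1 of the 10 was lower, 3893 genes were higher and 1568 lower (71.3% of calls higher against 51.1%). In that setting 6 other NRF2 regulators were higher and 0 lower, 12 other targets higher and 5 lower, 5 other glutathione genes higher and 5 lower (3 and 7 with TMM), and 4 ferroptosis genes higher and 3 lower (1 and 4 with TMM). At an adjusted p under 0.01, 3181 genes were called, 1582 higher and 1599 lower; the regulators had 1 higher and 0 lower, the targets 5 lower, and the glutathione and selenoprotein lists 1 higher each. The labels share the letters A, B and C, and deviations of same-letter libraries from their group means correlated at -0.44, -0.41 and -0.00 across genes. Deviations from a mean of 3 libraries depend on one another, so these values cannot show whether same-letter libraries were prepared together. With the replicate block 1 regulator was higher and 0 lower, 4 targets were lower, and 1 glutathione and 1 selenoprotein gene were higher; Gclc had -0.54 (adjusted p = 0.0257) and Gsr -0.56 (adjusted p = 0.0186). Limma on either FPKM scale gave 1 higher and 0 lower regulators and 1 higher and 1 lower selenoprotein genes, limma-voom 1 lower selenoprotein gene, upper quartile scaling 0 lower regulators, and a filter of 1 count in any library 2 higher ferroptosis genes. Leaving out each library gave 1 to 3 higher and 0 to 2 lower regulators, 6 to 10 lower targets, 1 to 3 higher glutathione genes, 1 to 2 higher and 0 to 1 lower selenoprotein genes and 1 to 2 higher ferroptosis genes; the log2 difference of the Bach1 to Nfe2l2 ratio ran from -0.0378 (reversed, without knockdown B) to 0.17 and that of Gclm to Gclc from 0.44 to 0.73. The causes of these shifts were not tested.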
